A study of Mus musculus with 10 samples.

Results

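The genes described here are mouse liver genes known as targets of Wnt/β-catenin signaling in pericentral hepatocytes. They were chosen by name, and of the 8 listed genes 7 had a row among the 15126 genes of the expression table. These were *Glul*, *Slc1a2*, *Axin2*, *Rnf43*, *Znrf3*, *Lgr5* and *Tbx3*. *Rhbg*, an ammonium transporter gene, was the eighth and was not analysed here. Their levels are given in 5 livers of *db/db* mice, which lack a working leptin receptor and become obese and diabetic. The livers were sequenced at 10 weeks of age, 5 weeks after the mice received an adeno-associated virus of serotype 8 encoding eGFP by tail vein (AAV8-Control). The promoter of the vector is not given in the sources used here, no lean group was analysed here, and every mouse carried both the *db/db* genotype and a vector. The sample labels name liver as the tissue but also primary hepatocytes as the cell type. They are read here as whole liver because the paper describes RNA-seq of livers from these mice. Marker genes of endothelial, Kupffer and stellate cells were all detected, which alone cannot tell whole liver from isolated hepatocytes.

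In the liver lobule, blood flows from the portal tract to the central vein, and hepatocytes along this path carry out different tasks. Endothelial cells at the central vein secrete Wnt ligands and R-spondins, which keep β-catenin active in the neighbouring hepatocytes. There β-catenin acts with TCF/LEF factors to switch on genes of glutamine synthesis and of the pathway's own feedback, while periportal hepatocytes run the urea cycle and gluconeogenesis. AXIN2, RNF43 and ZNRF3 restrain Wnt signaling, and *Axin2* and *Lgr5* are widely used as reporters of it.

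As TCF/LEF factors bind DNA through a short core motif, the promoters of the genes were searched for the letters CTTTGA, or TCAAAG on the other strand. RefSeq start sites on GRCm38.p6 gave 5 windows of 250 bases before a start for 4 of the genes, *Glul*, *Slc1a2*, *Axin2* and *Rnf43*, the latter with 2 starts. Every base of the *Glul* window and of the first *Rnf43* window lay in an annotated exon of some gene. Both *Rnf43* windows lay downstream of the first GENCODE start of that gene. The motif was present in 1 of these 5 windows, that of *Slc1a2*, against 13.8% of the 32851 windows of all genes. The *Slc1a2* window held 2 copies, 206 and 77 bases before the start, which lies downstream of the first GENCODE start of the gene, and 2 or more copies were found in 1.37% of all windows. In the *Slc1a2* window 29 bases lie in annotated exons, and the second copy lies after the first of these bases. The windows of *Axin2* and *Glul* were rich in G and C (69.2% and 64.8%), whereas that of *Slc1a2* had a GC content of 44.8% and those of *Rnf43*, without the motif, had 44.4% and 45.2%. A match is a description of letters and not a bound site, and a window without a match says nothing about TCF/LEF factors elsewhere in the gene. The first line below is the forward strand at chr2:102706188-102706355, the upstream stretch of the *Slc1a2* window up to an annotated exon, with the first copy of the motif in capitals. The second is the full window of *Axin2*, the classical reporter gene, on the forward strand at chr11:108920099-108920348. The third is the full window of the second *Rnf43* start at chr11:87699647-87699896, also on the forward strand, and it lies inside the gene. Neither the second nor the third line holds the motif, and both are shown for contrast with *Slc1a2*.
Slc1a2: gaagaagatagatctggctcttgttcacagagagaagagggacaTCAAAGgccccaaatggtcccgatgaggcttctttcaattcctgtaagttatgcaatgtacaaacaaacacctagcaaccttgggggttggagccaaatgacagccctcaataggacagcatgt
Axin2: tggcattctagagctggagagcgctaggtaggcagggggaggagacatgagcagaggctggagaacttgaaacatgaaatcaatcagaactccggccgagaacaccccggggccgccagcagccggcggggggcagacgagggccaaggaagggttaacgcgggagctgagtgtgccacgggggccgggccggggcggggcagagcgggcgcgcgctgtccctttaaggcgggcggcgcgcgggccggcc
Rnf43: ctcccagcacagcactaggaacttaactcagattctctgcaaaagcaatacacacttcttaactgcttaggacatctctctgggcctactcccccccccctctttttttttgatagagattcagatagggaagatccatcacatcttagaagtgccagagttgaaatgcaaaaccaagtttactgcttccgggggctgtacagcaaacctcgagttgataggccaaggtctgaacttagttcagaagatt

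Levels are given as CPM, the reads of a gene scaled to a fixed total of reads counted on genes (counts per 1000000 reads), and the libraries held 19499795 to 35498596 reads. Levels are compared between genes per kilobase (kb) of exon sequence. One group of livers is described, so that the values below are descriptions with no test, apart from a rule that marks outlying livers. Errors are the SD over 5 livers. A gene's level in whole liver cannot tell apart fewer cells of a type and less RNA per cell.

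The 7 genes covered a wide range of levels, with the metabolic targets *Glul* and *Slc1a2* the most abundant and *Glul* far above the rest. Per kilobase, *Glul* stood at 224 ± 10.8 CPM per kb, above 98.2% of the 11036 genes that had a known exon length and averaged 1 CPM or more. *Slc1a2* followed at 12.3 ± 2.53 CPM per kb, above 79.2% of these genes. *Tbx3* at 5.13 ± 0.593 and *Rnf43* at 3.42 ± 0.456 CPM per kb lay near the middle of all genes, whose median was 3.24 CPM per kb. *Znrf3* at 1.22 ± 0.127 and *Axin2* at 1.17 ± 0.184 CPM per kb were lower, above 25.4% and 24.4% of the genes. *Lgr5* was the lowest of the 7, at 0.557 ± 0.203 CPM per kb, above 11.3% (SD, n = 5 livers for each gene).

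The first 4 steps of this order were found in every liver. *Glul* exceeded *Slc1a2* by 14.3 to 22.1 times, *Slc1a2* exceeded *Tbx3* by 2.04 to 2.92 times, and *Tbx3* exceeded *Rnf43* by 1.33 to 1.60 times. *Rnf43* exceeded its relative *Znrf3* by 2.59 to 3.01 times. *Znrf3* and *Axin2* were not apart by more than their spread, as *Znrf3* was the higher in 3 of 5 livers and the ratio ran from 0.786 to 1.36. *Axin2* exceeded *Lgr5* in 5 of 5 livers, by 1.26 to 4.90 times. This last step depended on the length used. With the longest annotated transcript in place of all exon sequence, *Lgr5* was at 1.19 ± 0.435 and *Axin2* at 1.51 ± 0.238 CPM per kb (SD, n = 5), and *Lgr5* was the higher in livers 4 and 5. The means then had the same order, with *Znrf3* and *Axin2* at 1.53 and 1.51 CPM per kb, and the first 4 steps again held in 5 of 5 livers.

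**Figure D1:**
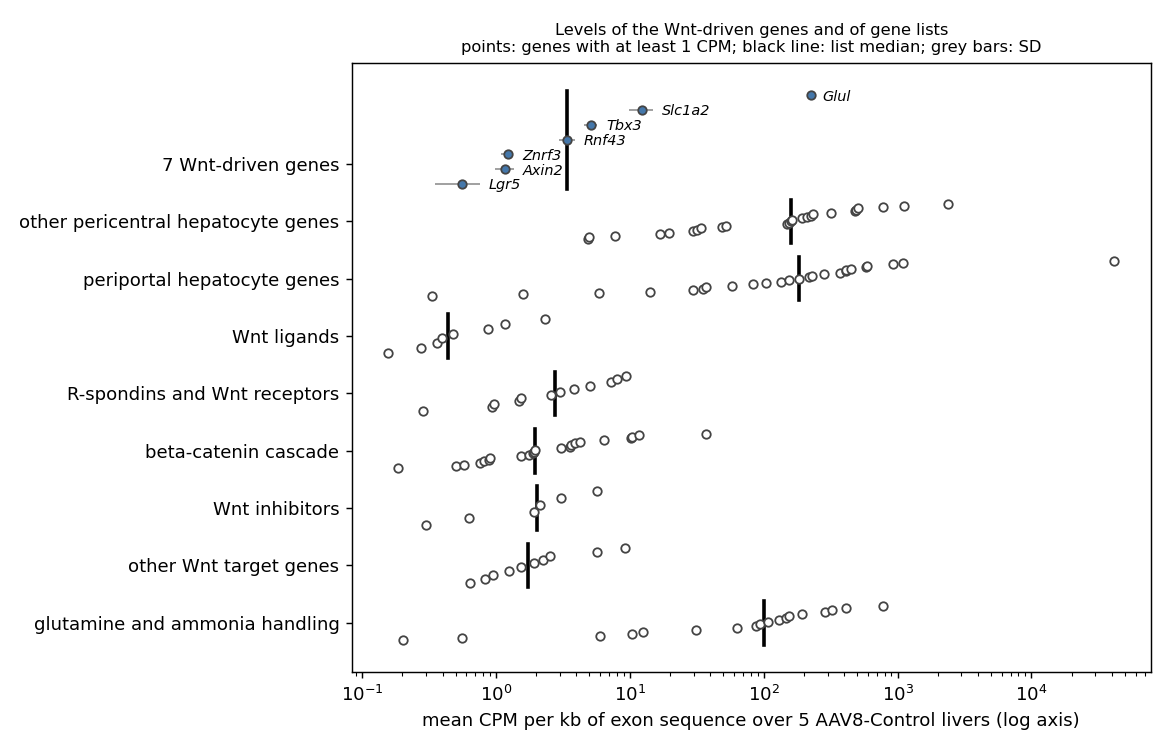
Mean level in CPM per kb of exon sequence over the 5 AAV8-Control livers (horizontal axis, log scale) of the 7 Wnt-driven genes, with SD as grey bars, and of the genes of 8 lists (rows), with the list median as a black line. *Glul* lies among the pericentral and periportal hepatocyte genes, whose medians are 161 and 182 CPM per kb, and *Znrf3*, *Axin2* and *Lgr5* lie at the levels of Wnt receptors and ligands.

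*Glul* (ENSMUSG00000026473, chromosome 1, 153899944 to 153909723, forward strand of GRCm38) encodes glutamine synthetase, which fixes ammonia that has escaped the urea cycle. Its level in livers 1 to 5 was 792, 719, 745, 768 and 703 CPM. The highest liver exceeded the lowest by 1.13 times, and the mean was 745 ± 36.0 CPM (SD, n = 5). Its coefficient of variation (CV, the SD as a percentage of the mean) was 4.83%, and 9.52% of the genes averaging 1 CPM or more had a smaller one. At 14549 to 26461 reads per library, counting error alone gives a CV of 0.755%. A protein-coding gene on the opposite strand, *Teddm2*, overlaps *Glul*, and the sources used here do not state that strand was used in counting.

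*Slc1a2* (ENSMUSG00000005089, chromosome 2, 102658659 to 102790784, forward strand) encodes a glutamate transporter, EAAT2 or GLT-1, that supplies pericentral cells with the substrate of glutamine synthetase, and is the gene whose upstream window holds the motif above. Its levels in livers 1 to 5 were 178, 138, 133, 212 and 148 CPM. Livers 4 and 1 were high and the other 3 lay close together. The mean was 162 ± 33.2 CPM (SD, n = 5), with a CV of 20.5% where counting error gives 1.62%. Without liver 4 the CV was 13.5%. From the lowest to the highest liver *Slc1a2* spread over 1.59 times, where *Glul* spread over 1.13 times. All 7 Slc1a transporters were in the table and 3 averaged 1 CPM or more, *Slc1a2* with *Slc1a4* and *Slc1a5*. These carriers of small neutral amino acids, named after their values were seen, were at 14.7 ± 3.88 and 2.64 ± 1.09 CPM (SD, n = 5).

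*Axin2* (ENSMUSG00000000142, chromosome 11, 108920349 to 108950783, forward strand) encodes a scaffold of the complex that marks β-catenin for degradation, and is a negative feedback target. Livers 1 to 5 had 6.72, 7.13, 7.55, 5.76 and 5.07 CPM. Liver 5 was the lowest and liver 3 the highest, and no other of the 7 genes was highest in liver 3. The mean was 6.45 ± 1.01 CPM (SD, n = 5), and the CV of 15.7% compares with a counting error of 8.08%. The level rested on 105 to 268 reads per library.

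The other feedback inhibitors, RNF43 and ZNRF3, are related transmembrane ubiquitin ligases that remove Frizzled receptors from the cell surface, and R-spondins bound to LGR receptors relieve this brake. *Rnf43* (ENSMUSG00000034177, chromosome 11, 87662722 to 87735539, forward strand) was at 23.0, 20.8, 18.8, 26.9 and 22.7 CPM in livers 1 to 5. *Znrf3* (ENSMUSG00000041961, chromosome 11, 5276324 to 5444847, reverse strand) was at 9.80, 9.63, 8.51, 11.2 and 9.09 CPM. Both genes were highest in liver 4 and lowest in liver 3. The means were 22.4 ± 2.99 CPM for *Rnf43* and 9.64 ± 1.002 CPM for *Znrf3* (SD, n = 5). The CV was 13.3% for *Rnf43* and 10.4% for *Znrf3*, where counting error gives 4.36% and 6.65%. Without liver 4, the highest, the CV of *Znrf3* was 6.30%.

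*Lgr5* (ENSMUSG00000020140, chromosome 10, 115450311 to 115587780, reverse strand) encodes an R-spondin receptor that amplifies Wnt signals and marks stem cells in the intestine. It was at 5.28, 5.15, 2.87, 8.49 and 6.77 CPM in livers 1 to 5. The highest liver, number 4, exceeded the lowest, number 3, by 2.96 times, the broadest range among the 7 genes. The mean was 5.71 ± 2.09 CPM (SD, n = 5), and 96.7% of the genes averaging 1 CPM or more had a smaller CV than its 36.5%. Counting error gives 8.70% at its 102 to 233 reads per library, and without liver 3 the CV was 24.3%. The related receptor *Lgr4*, which also serves R-spondins in hepatocytes, was at 42.9 ± 5.00 CPM (SD, n = 5), or 7.30 CPM per kb and thus 13.1 times *Lgr5*, a ratio that was 7.12 by the longest transcripts.

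*Tbx3* (ENSMUSG00000018604, chromosome 5, 119670669 to 119684724, forward strand) encodes a T-box transcription factor, mostly a repressor, that marks pericentral hepatocytes. Livers 1 to 5 had 30.8, 32.9, 30.3, 39.4 and 36.6 CPM. Livers 4 and 5 were above the other 3, and the mean was 34.0 ± 3.93 CPM (SD, n = 5). The CV was 11.5%, where counting error gives 3.53%. Of 10 T-box genes 7 were in the table and 3 averaged 1 CPM or more, among which *Tbx3* had the highest level per kilobase. The antisense transcript *Tbx3os1* overlaps *Tbx3*, as *Gm11670* does *Axin2* and *Gm13872* does *Slc1a2*. *Lgr5* is overlapped by *A930009A15Rik*, annotated as protein-coding on the opposite strand, and reads of such pairs could not be told apart without strand.

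**Figure D2:**
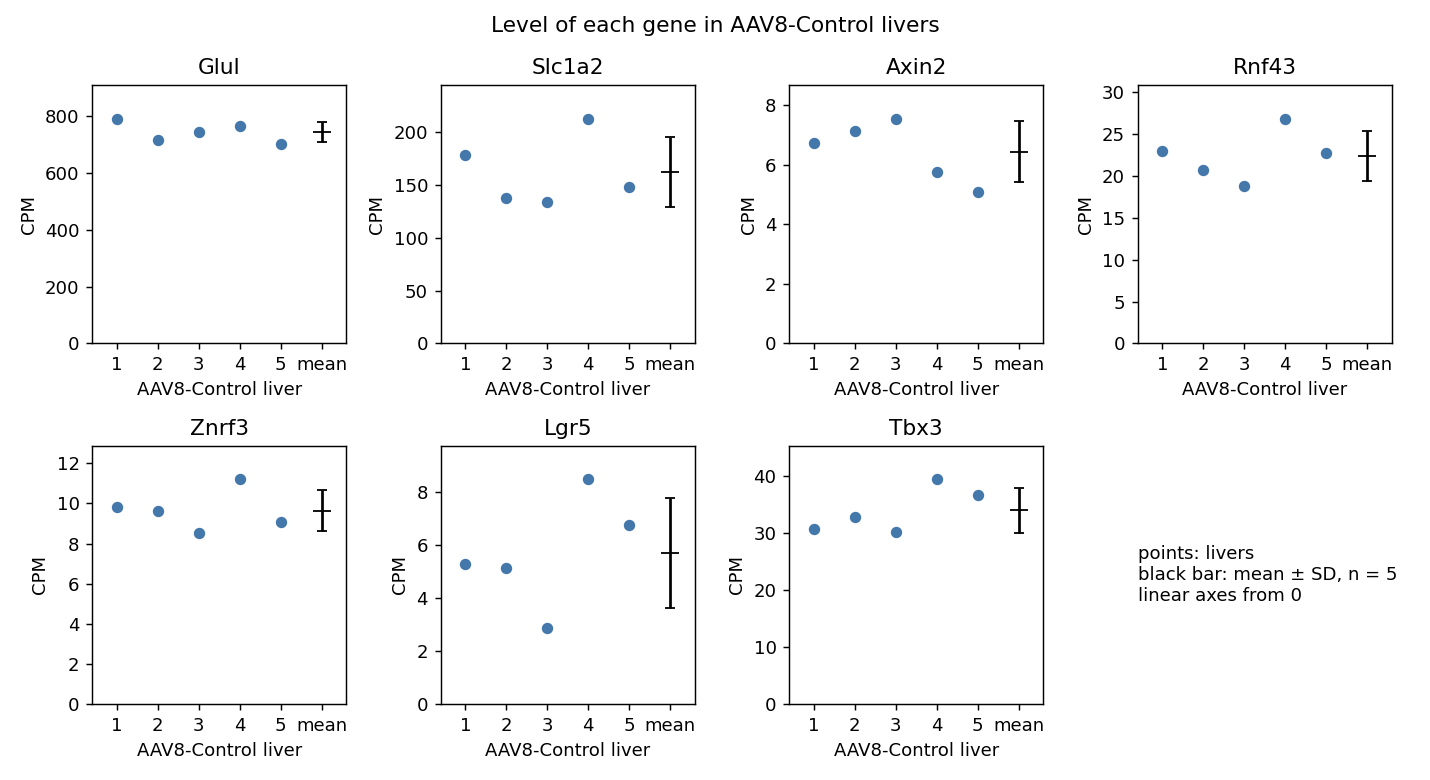
Level of each of the 7 genes in CPM (vertical axes, linear from 0) in the 5 AAV8-Control livers (horizontal axes), with each liver as a point and the mean ± SD as a black bar. *Glul* is nearly level across the livers at 703 to 792 CPM, and *Lgr5* spreads from 2.87 to 8.49 CPM.

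The same livers were high or low for 5 of the 7 genes. Liver 4 was the highest and liver 3 the lowest for *Slc1a2*, *Rnf43*, *Znrf3*, *Lgr5* and *Tbx3*. With median-of-ratios scaling in place of plain CPM this held for 4 of the 7, as *Tbx3* was then lowest in liver 1 (29.3 against 30.5 in liver 3). Of the 11041 genes averaging 1 CPM or more, 6.38% had these extremes and 7.66% had the reverse (7.36% and 8.09% with that scaling). Livers 3 and 4 were also the most different pair of libraries over all genes, with a chi-square per degree of freedom of 115.6 where the other pairs had 15.9 to 64.5. This statistic grows with depth, and livers 3 and 4 were the deepest libraries, liver 4 with 27435041 reads. In log2(CPM + 1), liver 4 was above the mean of the livers by 0.56 for *Lgr5*, 0.41 for *Slc1a2*, 0.26 for *Rnf43*, 0.21 for *Tbx3* and 0.20 for *Znrf3*. *Glul* was also above its mean there, by 0.04, whereas *Axin2* had a deviation of -0.13. In liver 3 the deviation was -0.73 for *Lgr5*, between -0.26 and -0.16 for the other 4 of these genes and 0.21 for *Axin2*. With 5 livers no correlation was computed between genes, and the genes share their libraries. Liver 3 was also the deepest library (35498596 reads), and its part in these levels was not tested.

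**Figure D3:**
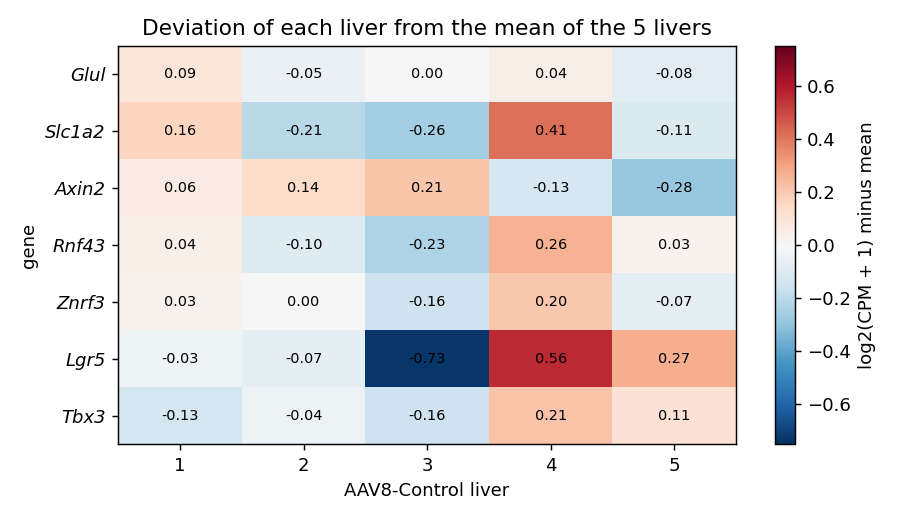
Deviation of each of the 5 AAV8-Control livers (columns) from their mean in log2(CPM + 1) for each gene (rows), with red above and blue below the mean. Liver 4 is above the mean for 6 of 7 genes and liver 3 is below it for 5, and *Axin2* is an exception in both, with *Glul* at 0.00 in liver 3.

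Other genes of pericentral hepatocytes were divided in which livers were high or low. Of 25 listed, 9 were highest in liver 4 and lowest in liver 3, 1 (*Gstm3*, a glutathione transferase) had the reverse, and the other 15 had other extremes. The summed level of 25 other pericentral hepatocyte genes was 19144, 17531, 16651, 21269 and 18039 CPM in livers 1 to 5, highest in liver 4 and lowest in liver 3. Of that sum 64% came from *Cyp2e1*, *Cyp2c29*, *Oat* and *Cyp2c50*, and the other 21 genes had 6953, 6151, 6435, 7158 and 6684 CPM, lowest in liver 2. All 25 averaged 1 CPM or more, and their median was 161 CPM per kb. *Oat*, which turns ornithine toward glutamate and is kept by β-catenin beside *Glul*, was at 2050, 1646, 1393, 2170 and 1908 CPM. The drug-metabolizing *Cyp2e1* was at 5284, 4956, 4192, 6020 and 5089 CPM, and *Lect2*, another β-catenin target of hepatocytes, at 149, 130, 120.0, 172 and 121 CPM. These 3 were among the 9. *Cyp1a2*, also drug-metabolizing, was highest in liver 4 (562 CPM) but lowest in liver 5 (384 CPM), with a mean of 454 ± 70.1 CPM (SD, n = 5). At 225 CPM per kb *Cyp1a2* was close to *Glul*, while *Oat* and *Cyp2e1* stood at 777 and 2367 CPM per kb.

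Periportal hepatocyte genes were summed beside them. The 25 listed genes had 97323, 119130, 120020, 130270 and 105320 CPM in livers 1 to 5, but albumin dominates that sum. Without *Alb* the other 24 had 17322, 17585, 14981, 18659 and 17701 CPM, highest in liver 4 and lowest in liver 3 as the pericentral sum was. Of the 25 genes 6 had these extremes, among them *Cps1* of the urea cycle and the gluconeogenic *Pck1*, so that the extremes were found in genes of both zones. The median gene was at 182 CPM per kb. Glutamine and ammonia are handled by both zones, by glutaminase and the urea cycle around the portal tract and by glutamine synthetase around the central vein. Of 21 genes for this, all were in the table and 18 averaged 1 CPM or more, with a median of 101 CPM per kb. *Gls2*, the liver glutaminase that undoes the reaction of glutamine synthetase, was at 608, 474, 424, 577 and 583 CPM, lowest in liver 3, with a mean of 533 ± 79.8 CPM (SD, n = 5). Per kilobase it stood at 153 ± 23.0 CPM per kb, below *Glul*.

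The signals that drive the genes were low in whole liver. Of 21 genes for Wnt ligands and their secretion, 13 were in the table and 8 averaged 1 CPM or more, with a median of 0.439 CPM per kb. *Wnt2*, a ligand of the liver endothelium, was at 4.62, 2.12, 1.97, 1.93 and 2.66 CPM in livers 1 to 5. *Wnt9b*, the other ligand of the central vein, was at 3.18, 1.78, 1.21, 1.57 and 1.26 CPM. *Rspo3*, the R-spondin of central vein endothelium, was at 6.10, 4.72, 4.28, 4.74 and 3.91 CPM. Liver 1 was the highest for all of these signals. Of the 7 target genes only *Glul* was highest there, and with median-of-ratios scaling *Glul* was highest in liver 4 (791 against 754 in liver 1). The ligands rested on few reads, 44 to 90 per library for *Wnt2* and 26 to 62 for *Wnt9b*.

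As these signals come from endothelial cells, the 12 endothelial marker genes are given beside them. Their summed level was 376, 266, 315, 185 and 262 CPM in livers 1 to 5. Liver 1 was thus also the highest for this sum, and liver 4, the highest for *Slc1a2*, *Rnf43*, *Znrf3*, *Lgr5* and *Tbx3*, was the lowest. *Lyve1* and *Oit3* were highest in liver 3 and the other markers in liver 1, and all but *Vwf* were lowest in liver 4. None of the 12 markers was at 0 in any library, and their part in the levels of the 7 genes was not tested.

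**Figure D4:**
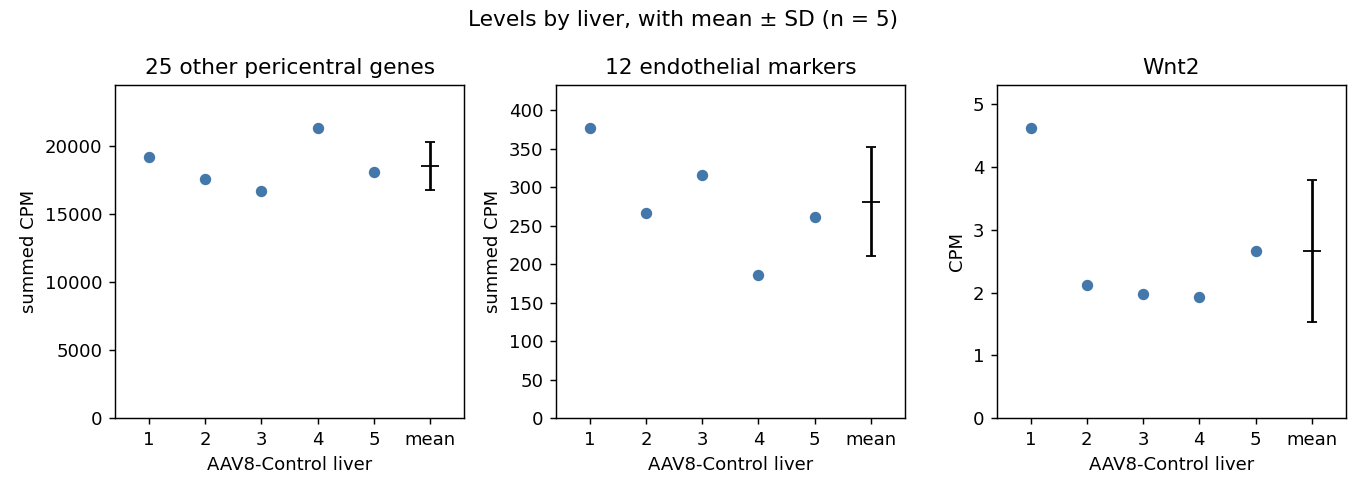
Summed level of 25 other pericentral genes, summed level of 12 endothelial markers and level of *Wnt2* (vertical axes in CPM, linear from 0) in each of the 5 AAV8-Control livers (horizontal axes), with the mean ± SD (n = 5) as a black bar. The pericentral sum is highest in liver 4 at 21269 CPM, where the endothelial sum is lowest at 185 CPM, and liver 1 is highest for the endothelial sum and for *Wnt2*.

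The machinery that receives and passes on the signal was more abundant than the ligands. Among R-spondins and Wnt receptors, 18 of 21 listed genes were in the table and 12 averaged 1 CPM or more, with a median of 2.79 CPM per kb. In the β-catenin cascade, 22 of 23 genes did so, with a median of 1.95 CPM per kb. *Ctnnb1*, for β-catenin itself, was the highest of that list at 37.0 ± 2.45 CPM per kb (SD, n = 5). Its levels in livers 1 to 5 were 173, 196, 187, 197 and 207 CPM, a CV of 6.63%, and it was lowest in liver 1. *Tcf7l2*, the main hepatic TCF gene, was at 16.9 ± 2.51 CPM (SD, n = 5), lowest in liver 3, with livers 1 and 5 close together at 19.7 and 19.4 CPM.

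Few inhibitors outside the 7 genes were well expressed. Of 21 other Wnt inhibitors 17 were in the table and 6 averaged 1 CPM or more, with *Notum*, *Dact2* and *Kremen1* the highest per kilobase (named after their values were seen). Of 13 other Wnt target genes known mainly from other tissues, 12 were in the table and 10 averaged 1 CPM or more, and their median of 1.73 CPM per kb compares with 3.42 CPM per kb for the 7 genes. *Notum* and *Nkd1* stand in both lists.

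Other cell types were checked with marker genes. The summed level of 8 hepatocyte markers ranged from 101370 to 137800 CPM, of which *Alb* supplied 80.5% on average, and that of the other 7 from 21367 to 26188 CPM. Both sums were highest in liver 4 and lowest in liver 1, and their part in the levels of the Wnt-driven genes was not tested. The summed level of 8 Kupffer cell markers ranged from 134 to 270 CPM, that of 8 stellate cell markers from 269 to 360.1 CPM and that of 8 cholangiocyte markers from 33.6 to 54.2 CPM. No hepatocyte, Kupffer or stellate cell marker was at 0 in any library, while 3 of the 8 cholangiocyte markers were at 0 in at least 1. Of the Rh family that holds *Rhbg*, 1 of 4 genes, *Rhd*, was in the table, with reads in 2 of the 5 libraries.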

How the data were processed

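RNA-seq data of 5 *db/db* AAV8-Control livers were used (poly-A selected RNA, single reads of 50 bases). The other deposited libraries, and the comparisons that need them, are not reported here. According to the methods and the submitters' processing notes, the authors aligned reads with STAR 2.0.4b to Ensembl release 76 (GRCm38.p2) and counted uniquely aligned, unambiguous reads on genes with featureCounts 1.4.5. The authors deposited CPM values, a step not described in the sources used here. Each library's values were whole multiples of the CPM of 1 read (100% within 0.01 of a read), so reads were recovered from them. A read was worth 0.0282 to 0.0513 CPM, and the listed genes held 97.8% to 98.3% of the reads counted. The table's 15236 lines hold 15126 genes, as 110 lines are repeats.

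Means, SDs and CVs were computed with pandas 2.3.3, and counting error as the Poisson SD of the recovered reads, which covers counting only. Genes averaging 1 CPM or more numbered 11041. Exon lengths and positions came from GENCODE release M21 (GRCm38), matched by identifier for 15119 genes, and promoters from a RefSeq table, in which *Tbx3*, *Znrf3*, *Lgr5* and *Rhbg* had no entry. Named are the 7 genes, a fixed set of pathway and zonation genes, and a few others that were named after their values were seen. The rule's parts that rest on a test were not applied. The members and the 16 lists, which were written by hand, were chosen with earlier results of these data known. Alternatives, chosen after the data were seen, were median-of-ratios scaling, each liver left out in turn and the longest transcript as the gene length.

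No pair of libraries was a near duplicate (lowest chi-square per degree of freedom 15.9). Nothing in the labels says how the livers relate beyond their group, and no batch or date is given. The labels' growth and treatment protocols describe cultured hepatocytes and an adenovirus, and do not match the liver and AAV8 labels, which were followed.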

Additional observations from a re-analysis of the deposited data

Results flagged for a closer look

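In the group of 5 livers, a library was marked for a gene when its gap to the nearest other exceeded 0.71 of the group's range, which chance gives for about 1 in 20 groups. Of 18 genes tested, the 7 Wnt-driven genes and 11 of their pathway and zone, 2 were marked, both in AAV8-Control liver 1. That liver had 4.62 CPM of *Wnt2*, where the other livers had 1.93 to 2.66 CPM, and 3.18 CPM of *Wnt9b*, where they had 1.21 to 1.78 CPM. The mark of *Wnt9b* lay at the threshold and was lost with median-of-ratios scaling (0.678 of the range), where that of *Wnt2* stayed (0.722). None of the 7 Wnt-driven genes was marked.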

How the results depend on the processing

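Under median-of-ratios scaling the mean level was 745 CPM for *Glul*, 162 CPM for *Slc1a2* and 5.73 CPM for *Lgr5*. Leaving a liver out of 5 cannot move a mean by its SD, so only ranges are given. With a liver left out the mean ranged from 734 to 756 CPM for *Glul*, from 149 to 169 CPM for *Slc1a2* and from 5.02 to 6.42 CPM for *Lgr5*. The CV moved by over 1.5 times for *Lgr5* without liver 3 (24.3%), and for *Znrf3* (6.30%) and *Slc1a2* (13.5%) without liver 4. With the scaling, 4 of the 7 genes in place of 5 were highest in liver 4 and lowest in liver 3, *Glul* was highest in liver 4 and not in liver 1, and *Wnt9b* was no longer marked. The causes were not tested. With the longest transcript as the length, the mean levels of the 7 genes kept their order per kilobase, but the ratio of *Axin2* to *Lgr5* was 1.27 in place of 2.10 and *Lgr5* exceeded *Axin2* in 2 of 5 livers, while *Znrf3* exceeded *Axin2* in 2 in place of 3. No paired analysis was possible because one group is described. Apart from the rule that marked outlying livers, no result comes from a test, and the alternatives planned for tests were not run. At 102 to 268 reads per library for *Lgr5* and *Axin2*, counting error adds to their spread.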
